A study of Homo sapiens with 8 samples.

Results

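A set of 10 genes from the EGR, NR4A, KLF and IER families (EGR1, EGR2, EGR3, NR4A1, NR4A2, NR4A3, KLF4, KLF6, IER2 and IER3) were followed through RNA-seq of a triple-negative breast cancer line and a metastatic derivative in which TAF7 was knocked down. They were chosen by symbol, and all 10 were found among the 61552 genes of the deposited table. The lines were MDA-MB-231 and MDA231-LM2 (LM2 below), a derivative of MDA-MB-231 selected for metastasis to the lung. Both lines were grown in DMEM with serum, and no stimulus or time course is named in the labels. The 4 groups were these: MDA-MB-231 with a control hairpin, MDA-MB-231 with a hairpin against TAF7 (shTAF7), LM2 with the control hairpin and LM2 with shTAF7. The labels call the control groups WT and the others TAF7 knockdown, and every group carried a hairpin. Each group held 2 libraries, numbered 2 and 3, which the labels do not describe as separate cultures. The p-values therefore reflect the spread between these libraries alone, which may be technical and which the fit shares in part between genes. A single TAF7 hairpin (number 3 in the titles) was used, so an effect of TAF7 loss and an effect of that hairpin on other transcripts cannot be told apart.

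TAF7 is a subunit of TFIID, the complex that binds core promoters and helps to place RNA polymerase II. The 10 genes belong to the early response: in many cell types their transcription rises within minutes to hours of growth factors, stress or inflammatory signals, without new protein synthesis, and their mRNAs are mostly short-lived. EGR proteins are zinc-finger activators that bind GC-rich sites, NR4A proteins are orphan nuclear receptors that act without a known hormone, KLF4 and KLF6 are Krüppel-like zinc-finger factors, and IER2 and IER3 are small early response proteins, IER3 being linked to cell survival and NF-kB signalling. Serum response factor acts at CArG boxes and CREB at cyclic AMP response elements in the promoters of many such genes.

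The sequences of 3 promoters are shown because these genes are among the members called lower after knockdown in LM2 and their windows hold the letters of such elements. RefSeq (GRCh38.p14) promoter windows, each the 250 bases before an annotated start, were matched for 7 members with 10 starts; EGR3, IER3 and NR4A2 are named only. Capitals mark matches to the CArG box, to the CRE half-site TGACG and to the TATA box letters TATAA, all searched on both strands. The windows are EGR1 at chr5:138465229-138465478 (plus strand), EGR2 at chr10:62816367-62816616 (minus strand) and KLF4 at chr9:107489770-107490019 (minus strand), and 0 of their bases lie in GENCODE 29 exons.
EGR1: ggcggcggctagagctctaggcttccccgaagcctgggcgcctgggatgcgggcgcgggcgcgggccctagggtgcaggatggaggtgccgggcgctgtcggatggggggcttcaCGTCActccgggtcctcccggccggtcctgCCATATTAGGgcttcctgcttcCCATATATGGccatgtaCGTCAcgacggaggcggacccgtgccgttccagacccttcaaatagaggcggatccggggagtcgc
EGR2: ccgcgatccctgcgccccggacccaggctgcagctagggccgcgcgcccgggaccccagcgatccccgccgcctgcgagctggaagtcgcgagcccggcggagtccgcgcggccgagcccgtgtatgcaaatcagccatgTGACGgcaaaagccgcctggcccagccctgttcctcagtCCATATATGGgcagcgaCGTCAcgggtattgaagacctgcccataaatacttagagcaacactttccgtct
KLF4: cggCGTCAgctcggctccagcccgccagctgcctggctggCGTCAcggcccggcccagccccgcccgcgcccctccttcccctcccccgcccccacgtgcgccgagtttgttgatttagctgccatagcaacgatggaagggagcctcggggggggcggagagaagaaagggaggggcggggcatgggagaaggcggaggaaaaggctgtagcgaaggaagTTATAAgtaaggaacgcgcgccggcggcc
EGR1 held 2 CArG boxes, 83 and 105 bases before the start, and 2 CRE half-sites at 66 and 135. EGR2 held 1 CArG box at 71 and CRE half-sites at 54 and 110. A CArG box was found in 1.16% of all 35116 RefSeq windows of this length, against 21.2% for the CRE half-site and 18.9% for TATAA. KLF4 held CRE half-sites at 210 and 247 and TATAA matches at 28 and 29, which overlap each other on opposite strands. Among the windows not shown, NR4A3 held 4 CRE half-sites and IER2 held 1, and both genes were also called lower in LM2. The windows searched for KLF6, likewise called lower, for NR4A1 and for the other starts of EGR2 held none of the 3 motifs. Any further starts of these genes were not searched. A match describes letters in a window and says nothing of whether a factor was bound.

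The libraries held 17217776 to 20292291 counts in genes, and 1 read was worth 0.0488 to 0.0583 CPM (counts scaled to the TMM-adjusted library total). Reads were found in 24762 and 24490 genes in the LM2 control libraries and in 22296 to 23434 in the other 6. TAF7 was lower in both knockdown groups: in MDA-MB-231, 3446 and 3300 counts became 1845 and 2160 (log2 fold change -0.77 ± 0.07, edgeR adjusted p = 4.01e-12), and in LM2, 3548 and 3527 became 2549 and 2809 (-0.43 ± 0.07, 8.42e-07). Here and below, ± after a log2 fold change is the standard error of the fit (n = 2 libraries per group), and a gene is called at an edgeR adjusted p under 0.05 over the 15923 genes tested. Of the markers of the labelled cell type, VIM, CD44, CAV1 and AXL summed to 572 to 800 FPKM (fragments scaled to gene length and library total). The estrogen receptor gene ESR1 had at most 5 reads in a library and the progesterone receptor gene PGR at most 1, while ERBB2, the receptor gene whose amplification is also absent by definition in triple-negative disease, was read at 5.18 to 6.77 FPKM. Epithelial markers summed to 150 to 224 FPKM, nearly all from the keratins KRT8, KRT18 and KRT19, and the cadherin gene CDH1 had at most 3 reads. Summed markers of leukocytes reached 0.51 FPKM, of endothelium 1.53, of fibroblasts 3.97 and of erythroid cells 0.31, each highest in the LM2 control, and HBB, an erythroid marker, had 0 reads in all libraries.

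The members spanned more than 3 orders of magnitude. EGR1 and IER3 were the most abundant per length, KLF6, KLF4 and IER2 were intermediate, and the NR4A genes, EGR2 and EGR3 were low. In the MDA-MB-231 control the mean FPKM ran from 68.5 for EGR1 through 55.9 for IER3, 34.4 for KLF6, 12.0 for KLF4, 6.93 for IER2, 1.40 for NR4A2, 0.38 for NR4A1 and 0.185 for EGR2 to 0.075 for EGR3 and 0.06 for NR4A3. Only EGR3 and NR4A3, the last of this order, overlapped between libraries there. With shTAF7 in MDA-MB-231, IER3 stood first and EGR1 second. In LM2 with shTAF7, EGR1 still stood first, IER3 and KLF6 overlapped, IER2 stood above KLF4, and NR4A1 overlapped NR4A2. All 10 passed the filter on low counts, but NR4A3 reached the filter's CPM in 2 libraries, both of the LM2 control, and EGR3 in 3, so their tests rest on few reads and a gene that passes mainly through its highest group is prone to a difference.

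**Figure D1:**
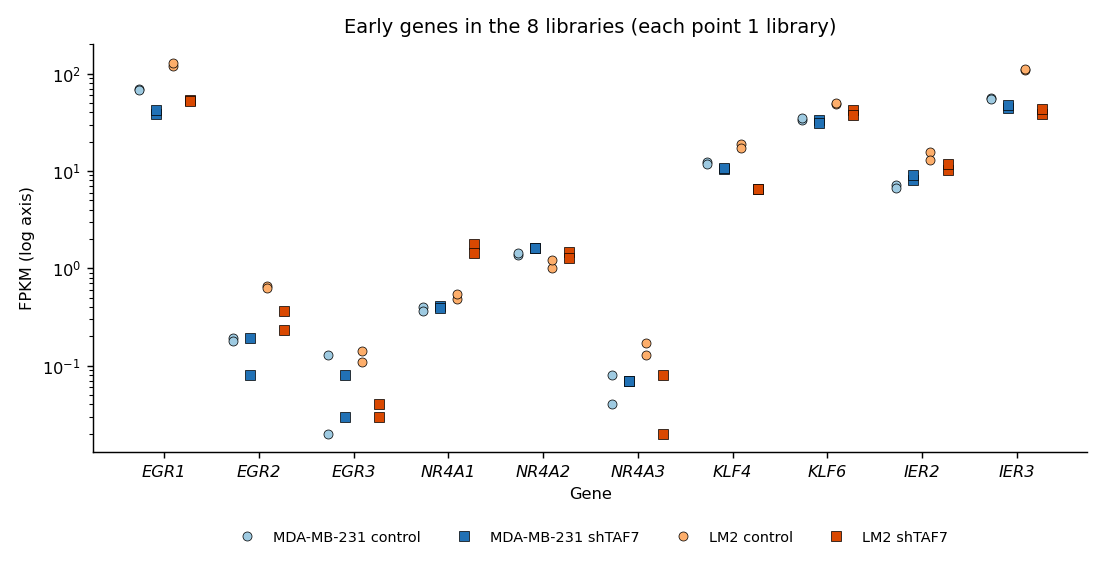
FPKM of the 10 genes on a log axis, each point 1 library and each colour 1 of the 4 groups. EGR1 and IER3 lie highest and reach 130.05 and 112.3 FPKM in the LM2 control, while EGR3 and NR4A3 lie at 0.02 to 0.17.

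In LM2 with shTAF7, EGR1, KLF4 and IER3 stood at under 50% of their control level and NR4A1 stood more than 3-fold higher. Of the 10 members, 7 were called lower and 1 higher in LM2, where 19.4% of all tested genes were called lower and 21.8% higher. In MDA-MB-231, 2 were called lower and 1 higher, where the shares of all genes were 12.9% and 12.6%. The members' median log2 fold change was -1.04 in LM2 and -0.11 in MDA-MB-231, against -0.02 and 0.01 over all genes tested. Without the sparse EGR3 and NR4A3, 6 of 8 were called lower and 1 higher in LM2 (median -0.61), and 2 and 1 in MDA-MB-231 (-0.11). The background in LM2 depended on scaling: with library totals in place of TMM factors, 4664 genes were called lower and 2085 higher, against 3092 and 3478 with TMM, and the median of all genes moved to -0.14. By limma on log2(FPKM + 1), 4014 were called lower and 1893 higher. Of the 8 calls in LM2, those of EGR1, KLF4, IER3 and NR4A1 held in every alternative tried, and those of EGR2, NR4A3, KLF6 and IER2 did not. In bulk RNA, fewer cells expressing a gene and less RNA per cell cannot be told apart.

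EGR1, the most abundant member, is an activator that growth factor and stress signals induce through MAPK and serum response factor. It stood at 69.1 and 67.9 FPKM in the MDA-MB-231 control, 38.9 and 42.5 with shTAF7, 120.9 and 130.1 in the LM2 control and 54.1 and 52.9 in LM2 with shTAF7. Both knockdown groups lay below both control groups, with no overlap, and the LM2 control was the highest. With shTAF7, EGR1 stood at 60.0% of control in MDA-MB-231 (-0.74 ± 0.07, edgeR adjusted p = 2.54e-11) and to 46.6% in LM2 (-1.10 ± 0.07, 2.67e-18). It was called lower in both lines under every alternative, with adjusted p-values up to 0.00108 in MDA-MB-231 and 1.31e-05 in LM2. The fall was larger in LM2 by 0.37 ± 0.10 on the log2 scale (interaction -0.37, edgeR adjusted p = 0.0031).

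EGR2, which in other tissues controls myelination and T-cell responses, was low throughout. In MDA-MB-231, 13 and 12 reads were counted with the control hairpin and 12 and 6 with shTAF7. In LM2 the counts were 43 and 40 with the control hairpin and 16 and 27 with shTAF7. The LM2 control lay above all other groups. The call in LM2 (50.5% of control, -0.98 ± 0.37, edgeR adjusted p = 0.0273) was lost with DESeq2 (adjusted p = 0.203), without replicate 2 or 3 of the LM2 control (0.134 and 0.0991) and without replicate 2 of LM2 shTAF7 (0.234). Over all alternatives the adjusted p ran from 0.00694 to 0.234. In MDA-MB-231 the change was -0.48 ± 0.53 (95% interval -1.54 to 0.58, edgeR adjusted p = 0.556). EGR3, a relative of EGR1 also induced by calcium signals in lymphocytes, had 2 to 12 counts per library, and its change in LM2 (-1.65 ± 0.78, edgeR adjusted p = 0.0608) and in MDA-MB-231 (-0.38 ± 0.73, 0.762) was not called. In LM2 it was called with library totals (0.0462) and in a fit of the 4 LM2 libraries alone (0.03), over a range of 0.03 to 0.292. EGR1 made up 99.4% to 99.6% of the summed EGR FPKM in every group mean.

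NR4A1 (Nur77) was the one member called higher after knockdown in LM2. This nuclear receptor takes part in apoptosis, metabolism and immune tolerance. In MDA-MB-231, 55 and 47 reads were counted with the control hairpin and 51 and 58 with shTAF7. In LM2 the counts were 62 and 70 with the control hairpin and 240 and 213 with shTAF7. The LM2 shTAF7 libraries stood apart from the other 6, which lay between 47 and 70. NR4A1 rose 3.37-fold in LM2 (1.75 ± 0.18, edgeR adjusted p = 2.65e-11) and differed by 0.08 ± 0.23 in MDA-MB-231 (95% interval -0.38 to 0.54, 0.858). The difference between the lines was 1.67 ± 0.29 (edgeR adjusted p = 1.79e-05). The rise was called in every alternative, with log2 fold changes of 0.78 to 1.89 and adjusted p-values up to 0.000681, the lowest fold change coming from limma on log2(FPKM + 1), a scale that understates the change of low genes.

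An antisense gene, NR4A1AS (ENSG00000259884), shares 754 exon bases with NR4A1 on the opposite strand in GENCODE 29, and it was high in the same libraries. It had 39 and 15 counts in LM2 shTAF7 against 0 and 1 in the LM2 control, 0 and 0 in MDA-MB-231 shTAF7 and 2 and 2 in its control. Summed over libraries, the 54 counts of LM2 shTAF7 and the 1 count of the LM2 control gave a ratio of 52.9 (95% exact interval 9.10 to 2128, counting error only). The strand setting of the counting is not stated in the sources used here. How reads in the shared exon bases were assigned to NR4A1 or to its antisense partner is therefore not known. IER2 and IER3 also have antisense genes that share exon bases with them, and these had 0 reads in all 8 libraries. AC055854.1, which shares 164 exon bases with EGR3 on the opposite strand, had 2 and 0 reads in the LM2 control and 1 and 1 in LM2 shTAF7. It had 0 reads in the MDA-MB-231 libraries.

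NR4A2 (Nurr1), known from dopamine neurons, had 102 and 101 reads with the control hairpin and 110 and 131 with shTAF7 in MDA-MB-231, and 70 and 84 against 108 and 103 in LM2. Its changes were 0.23 ± 0.18 in MDA-MB-231 (edgeR adjusted p = 0.387) and 0.43 ± 0.19 in LM2 (95% interval 0.05 to 0.80, 0.065), neither of which was called. NR4A3 (NOR1) had 14 and 19 counts in the LM2 control and 3 to 9 elsewhere. Its call in LM2 (-1.47 ± 0.60, edgeR adjusted p = 0.0341) was lost with DESeq2 (0.216), with limma on log2(FPKM + 1) (0.0578) and on leaving out replicate 2 of the MDA-MB-231 control (0.0508), either LM2 control library (0.0693 and 0.242) or replicate 3 of LM2 shTAF7 (0.394, with a log2 fold change of -0.83). Over all alternatives its adjusted p ran from 0.0216 to 0.394. The order within the family by FPKM changed with the group. It and the shares depend on the gene lengths behind FPKM, judged from counts and FPKM as 7.31 kb for NR4A1 and 3.97 kb for NR4A2. NR4A1 was below NR4A2 by FPKM in 6 libraries and above it in 2, both LM2 shTAF7, and its share of the summed NR4A FPKM was 20.7% ± 1.54 (SD, n = 2) in the MDA-MB-231 control, 19.1% ± 0.677 with shTAF7, 29.01% ± 1.14 in the LM2 control and 52.9% ± 0.551 in LM2 shTAF7.

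**Figure D2:**
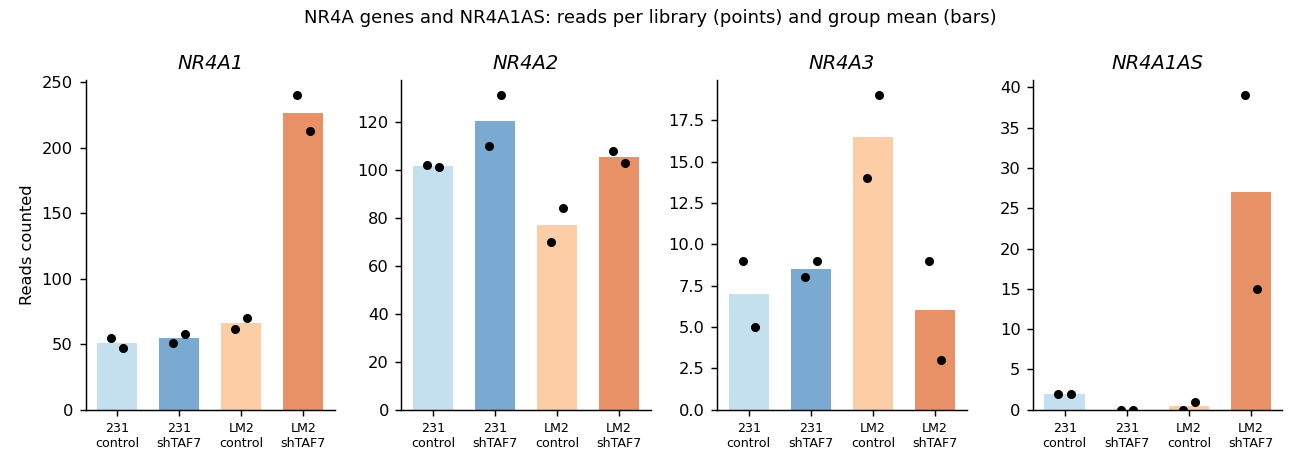
Read counts of NR4A1, NR4A2, NR4A3 and the antisense gene NR4A1AS in each of the 8 libraries, each point 1 library. NR4A1 stands at 240 and 213 counts in LM2 shTAF7 and at 47 to 70 in the other 6 libraries, and NR4A1AS at 39 and 15 against 0 to 2.

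KLF4, a pluripotency and differentiation factor that also restrains proliferation in epithelia, stood at 12.3 and 11.8 FPKM with the control hairpin and at 10.5 and 10.8 with shTAF7 in MDA-MB-231. In LM2 it stood at 19.0 and 17.1 in the control and at 6.59 and 6.57 with shTAF7. The LM2 control was thus the highest and LM2 shTAF7 the lowest of the 4 groups, with no overlap. KLF4 fell to 39.9% of control in LM2 (-1.33 ± 0.09, edgeR adjusted p = 1.03e-17) in every alternative, with adjusted p-values up to 1.07e-05. In MDA-MB-231 the change was -0.16 ± 0.08 (95% interval -0.33 to 0.00465, edgeR adjusted p = 0.155). The interaction was -1.16 ± 0.12 (edgeR adjusted p = 9.72e-11).

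KLF6, a ubiquitous factor described as a tumour suppressor, was the steadier KLF. It had 33.4 and 35.4 FPKM in the MDA-MB-231 control, 33.7 and 31.4 with shTAF7, 48.4 and 49.7 in the LM2 control and 42.0 and 37.6 in LM2 with shTAF7. It stood at 88.6% of control in LM2 (-0.17 ± 0.07, edgeR adjusted p = 0.036), a call that ended with DESeq2 (0.0739), without the low-count filter (0.166), in a fit of the 4 LM2 libraries alone (0.0512), without either MDA-MB-231 control library (0.0879 for replicate 2 and 0.086 for replicate 3), without either LM2 control library (0.0969 and 0.141) and without replicate 3 of LM2 shTAF7 (0.363, log2 fold change -0.09). Over all alternatives its adjusted p ran from 0.000292 to 0.363. In MDA-MB-231 it was not called (-0.06 ± 0.07, edgeR adjusted p = 0.554). KLF4 made up 26.0% ± 1.40 (SD, n = 2) of the summed FPKM of KLF4 and KLF6 in the MDA-MB-231 control, 24.7% ± 1.25 with shTAF7, 26.9% ± 1.80 in the LM2 control and 14.2% ± 0.943 in LM2 shTAF7.

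IER3 followed EGR1 and KLF4 in LM2. It stood at 56.5 and 55.2 FPKM in the MDA-MB-231 control, 44.8 and 47.5 with shTAF7, 108.7 and 112.3 in the LM2 control and 38.8 and 43.3 in LM2 with shTAF7. The LM2 control lay far above the other 3 groups, and LM2 shTAF7 lay below both MDA-MB-231 groups by FPKM but overlapped MDA-MB-231 shTAF7 by CPM. IER3 fell to 40.6% of control in LM2 (-1.30 ± 0.07, edgeR adjusted p = 1.24e-19, at most 8.83e-06 in any alternative). In MDA-MB-231 it fell to 83.6% (-0.26 ± 0.07, edgeR adjusted p = 0.00809), a call lost without replicate 2 or 3 of the MDA-MB-231 control (0.102 and 0.0512, over a range of 0.00176 to 0.102). The interaction was -1.04 ± 0.10 (edgeR adjusted p = 7.01e-11).

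IER2, a nuclear protein linked to cell motility, had 7.11 and 6.75 FPKM in the MDA-MB-231 control, 8.17 and 9.03 with shTAF7, 15.51 and 12.98 in the LM2 control and 10.2 and 11.7 in LM2 with shTAF7. The LM2 groups did not overlap by FPKM but did by CPM, and the knockdown estimates had opposite signs in the 2 lines. It was 1.25-fold higher in MDA-MB-231 (0.33 ± 0.10, edgeR adjusted p = 0.0147), a call lost with DESeq2 (0.07), with limma on FPKM (0.0892 and 0.0781), without replicate 2 or 3 of the MDA-MB-231 control (0.0628 and 0.13) and without replicate 3 of MDA-MB-231 shTAF7 (0.164), over a range of 0.00881 to 0.164. In LM2 it stood at 84.0% of control (-0.25 ± 0.09, edgeR adjusted p = 0.0276), a call lost with DESeq2 (0.168), without the low-count filter (0.102), without replicate 2 of the LM2 control (-0.11, 0.516) and without replicate 2 of LM2 shTAF7 (-0.13, 0.36), over a range of 0.00127 to 0.516. The interaction was -0.58 ± 0.14 (edgeR adjusted p = 0.00133) and was called in every alternative, with adjusted p-values up to 0.0323. IER2 made up 11.0% ± 0.193 (SD, n = 2) of the summed FPKM of IER2 and IER3 in the MDA-MB-231 control, 15.7% ± 0.389 with shTAF7, 11.4% ± 1.51 in the LM2 control and 21.0% ± 0.414 in LM2 shTAF7.

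**Figure D3:**
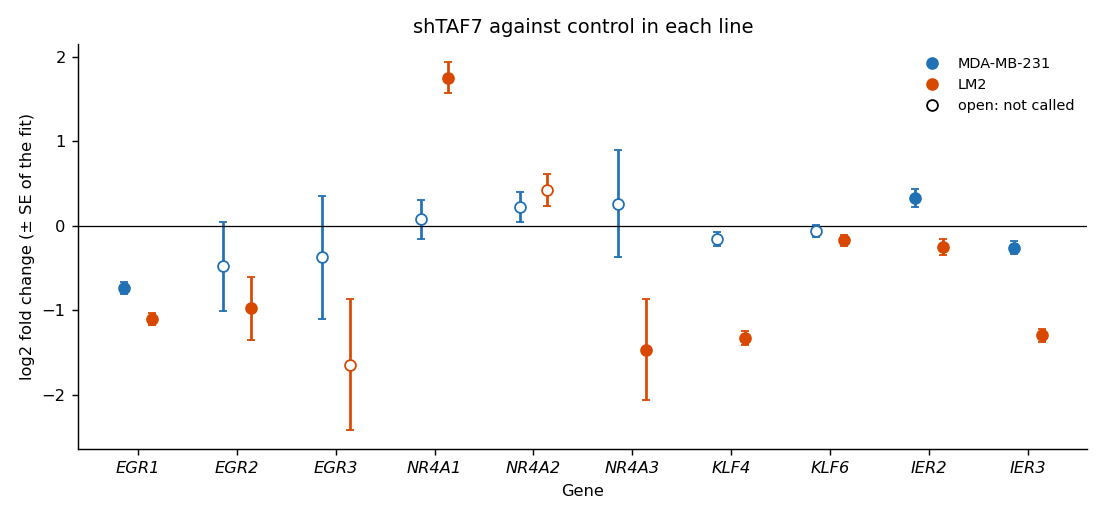
Log2 fold change of shTAF7 over control for the 10 genes in each line, with standard errors from edgeR, filled points being called and open points not. In LM2, EGR1, KLF4 and IER3 lie between -1.10 and -1.33 and NR4A1 lies at 1.75, while in MDA-MB-231 EGR1 at -0.74 is the largest called change.

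The difference between the knockdown effects of the 2 lines (LM2 minus MDA-MB-231) was called lower for EGR1, KLF4, IER2 and IER3 and higher for NR4A1, that is for 4 and 1 of 10 members, where 11.9% of all genes were called lower and 13.9% higher. These 5 calls held in every alternative. The estimate was not called for KLF6 (-0.11 ± 0.10, edgeR adjusted p = 0.444), NR4A2 (0.20 ± 0.26, 0.627), EGR2 (-0.50 ± 0.65, 0.631), EGR3 (-1.27 ± 1.06, 0.4) or NR4A3 (-1.73 ± 0.87, 0.133). With library totals in place of TMM, 2674 genes were called lower and 1297 higher over all genes, against 1892 and 2221 with TMM, and by limma on log2(FPKM + 1) the counts were 2096 and 998. The interaction uses all 4 groups, so it shares libraries with each of the other comparisons.

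Between the lines, most members were higher in LM2 than in MDA-MB-231 when both carried the control hairpin: 7 of 10 were called higher and 0 lower, where 32.2% of all genes were called higher and 32.1% lower. Of the 3 not called, NR4A2 had an unadjusted p of 0.0636, NR4A1 0.0686 and EGR3 0.285 in edgeR, so 0 were lower at an unadjusted p under 0.05, and DESeq2 also called 0 lower. Without the sparse EGR3 and NR4A3, the latter over the filter's CPM only in the LM2 control, 6 of 8 were called higher and 0 lower. EGR2 was 3.41-fold higher (1.76 ± 0.42, edgeR adjusted p = 0.000153), IER2 2.02-fold (1.01 ± 0.10, 1.51e-12), IER3 1.94-fold (0.96 ± 0.07, 2.97e-16) and EGR1 1.80-fold (0.85 ± 0.07, 1.68e-15). KLF4 (0.55 ± 0.08, edgeR adjusted p = 4.42e-08) and KLF6 (0.48 ± 0.07, 3.14e-08) were also higher. The call of NR4A3 (1.26 ± 0.57, edgeR adjusted p = 0.0419) was lost on leaving out any 1 of the 8 libraries (adjusted p 0.0551 to 0.271), with DESeq2 (0.25), without the low-count filter (0.0659) and with limma on log2(FPKM + 1) (0.0561), over a range of 0.0228 to 0.271. NR4A1 (0.41 ± 0.22, 0.099), NR4A2 (-0.36 ± 0.19, 0.0924) and EGR3 (0.67 ± 0.64, 0.349) were not called, although EGR3 was called without replicate 3 of the MDA-MB-231 control (2.45, 0.0484, over a range of 0.0484 to 0.867).

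The LM2 control libraries, where most members were highest, were also those with the most genes detected and the highest summed markers of other cell types. Leukocyte markers summed to 0.32 to 0.51 FPKM there against 0.06 to 0.28 elsewhere, endothelial markers to 1.48 to 1.53 against 0.59 to 1.01, fibroblast markers to 3.25 to 3.97 against 0.89 to 1.80, and erythroid markers to 0.19 to 0.31 against 0.03 to 0.12. Single genes held much of some sums: COL1A1 reached 3.24 FPKM, CD14 0.48 and ALAS2 0.31. By contrast, COL1A2 had at most 1 read in a library, DCN at most 2, and COL3A1 and CDH5 at most 3. KDR and VWF were called higher in LM2 with both hairpins, while PECAM1 was not called between the controls. The part of these markers in the differences of the early genes was not tested.

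With the TAF7 hairpin in both lines, 5 members were called higher in LM2 and 1 lower, where 30.9% of all genes were called higher and 31.6% lower. NR4A1 was 4.25-fold higher (2.08 ± 0.19, edgeR adjusted p = 4.62e-14). EGR1 (0.48 ± 0.07, edgeR adjusted p = 4.81e-08), IER2 (0.43 ± 0.10, 0.000152) and KLF6 (0.37 ± 0.07, 6.64e-06) remained higher in LM2. KLF4 was lower there, at 65.5% of its MDA-MB-231 level (-0.61 ± 0.09, edgeR adjusted p = 4.41e-08), the opposite direction to the control hairpin. IER3 differed by -0.08 ± 0.08 (95% interval -0.24 to 0.07, edgeR adjusted p = 0.343), which was called lower with library totals (-0.17, 0.0425) and by limma on FPKM (0.0406 and 0.0397) and turned to 0.00836 without replicate 2 of LM2 shTAF7. The call of EGR2 (1.26 ± 0.49, edgeR adjusted p = 0.0181) was lost with DESeq2 (0.106) and without replicate 3 of MDA-MB-231 shTAF7 (0.263) or of LM2 shTAF7 (0.212). EGR3 (-0.60 ± 0.85, 0.544), NR4A2 (-0.16 ± 0.18, 0.439) and NR4A3 (-0.46 ± 0.66, 0.549) were not called. The comparisons of the lines use the same libraries as the knockdown comparisons, so the values are set side by side and are not independent of them.

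**Figure D4:**
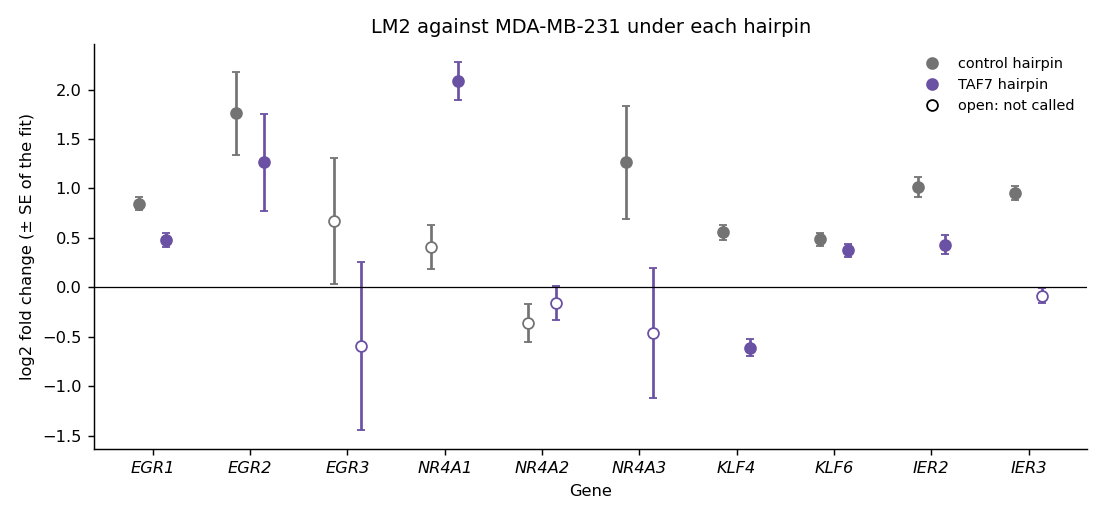
Log2 difference of LM2 over MDA-MB-231 for the 10 genes with the control hairpin and with the TAF7 hairpin, with standard errors from edgeR, filled points being called and open points not. KLF4 lies at 0.55 with the control hairpin and at -0.61 with the TAF7 hairpin, and NR4A1 at 0.41 and 2.08.

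Across the 8 libraries, IER3 was the member nearest in pattern to both EGR1 and KLF4. The likeness was measured as the root mean square difference of log2 CPM after centring each gene, which was 0.222 for EGR1 and IER3 and 0.243 for KLF4 and IER3, against 0.414 for EGR1 and KLF4. KLF6 and IER2 differed by 0.244. NR4A1 stood apart from every other member, with 0.766 to its nearest, IER2. Among 10751 candidate genes, the nearest to EGR1 were SIPA1L2 (0.148) and SQSTM1 (0.186), to KLF4 XBP1 (0.104) and GABARAPL1 (0.136), to IER3 JMY (0.0875) and ERRFI1 (0.0947), and to NR4A1 APLN (0.193) and REEP1 (0.310). The members' own standard deviations of log2 CPM were 0.57 for EGR1, 0.47 for KLF4, 0.52 for IER3 and 0.87 for NR4A1. These 8 points share 2 lines and 2 hairpins, and likeness is a description.

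Other early response genes were called lower more often than higher in LM2. Of 34 such genes outside the 4 families, 19 were called lower and 4 higher in LM2 (median log2 fold change -0.26), and 11 lower and 10 higher in MDA-MB-231 (0.02). For these and the lists that follow, the shares of all tested genes called lower and higher were 19.4% and 21.8% in LM2, 12.9% and 12.6% in MDA-MB-231, and 11.9% and 13.9% in the interaction. ATF3, a stress-induced repressor, fell by 1.20 ± 0.11 in LM2 (edgeR adjusted p = 3.43e-13), NFIL3, a leucine-zipper repressor, fell by 0.99 ± 0.09 (1.37e-12), and PPP1R15A, which directs dephosphorylation of eIF2 alpha, fell by 0.96 ± 0.07 (3.51e-16). In MDA-MB-231, JUND, an AP-1 subunit, rose by 0.89 ± 0.10 (edgeR adjusted p = 2.01e-09), whereas DUSP1, a MAPK phosphatase, fell by 0.70 ± 0.07 (2.49e-10) and the AP-1 subunit FOSB fell by 0.60 ± 0.14 (0.000978). The interaction was called lower for 19 of the 34 and higher for 4.

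A list of 12 NF-kB subunits, inhibitors and signalling proteins, many of which are known as targets of the pathway, was called mostly lower in LM2. There 10 of 12 were called lower and 1 higher (median -0.85, against 19.4% and 21.8% of all genes), and in MDA-MB-231, 1 lower and 6 higher (0.29, against 12.9% and 12.6%). NFKB1 was called lower and TNIP2 higher in both lines. TRAF1, a receptor adaptor, fell by 2.23 ± 0.22 in LM2 (edgeR adjusted p = 6.55e-13), TNFAIP3 (A20), a ubiquitin-editing enzyme, fell by 1.59 ± 0.09 (7.48e-19), and BIRC3, a ubiquitin ligase, fell by 1.22 ± 0.07 (1.36e-18). In MDA-MB-231, BCL3 rose by 0.64 ± 0.15 (edgeR adjusted p = 0.00091) and NFKB2 by 0.44 ± 0.07 (9.33e-06). The interaction was called lower for 9 of 12, and the other 3 were not called.

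Feedback genes of the MAPK pathway, which induces EGR1, were called lower for 6 of 12 and higher for 1 in LM2 (median -0.19), and lower for 1 and higher for 2 in MDA-MB-231 (-0.09), the latter near the 12.9% and 12.6% of all genes. DUSP5, an ERK phosphatase, fell by 0.53 ± 0.07 in LM2 (edgeR adjusted p = 7.95e-09) and rose by 0.46 ± 0.07 in MDA-MB-231 (1.31e-06). PHLDA1 fell by 0.79 ± 0.07 in LM2 (edgeR adjusted p = 3.07e-13), where SPRY1 rose by 0.52 ± 0.09 (4.45e-06). In MDA-MB-231, DUSP6 rose by 0.61 ± 0.07 (edgeR adjusted p = 2.6e-09) and SPRY2 fell by 0.34 ± 0.08 (0.000956). Of 14 factors that act on early promoters, with the NAB co-repressors of EGR proteins, 2 were called lower and 2 higher in LM2 (median 0.06, against 19.4% and 21.8% of all genes), and 3 lower and 2 higher in MDA-MB-231 (0.06, against 12.9% and 12.6%). SRF, the factor of the CArG box, rose by 0.40 ± 0.07 in LM2 (edgeR adjusted p = 9.91e-06), while NAB1 fell by 0.64 ± 0.08 (2.04e-08) and CREB1 fell by 0.37 ± 0.07 (4.53e-05).

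**Figure D5:**
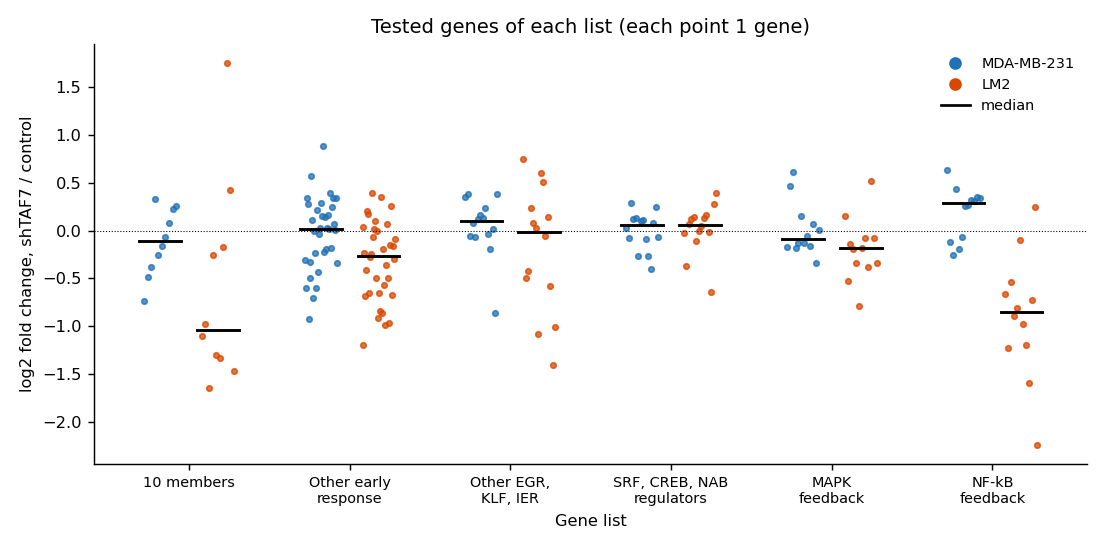
Log2 fold change of shTAF7 over control for the tested genes of each list in each line, each point 1 gene and each bar the list's median. In LM2 the median is -0.85 for the NF-kB list (labelled NF-kB feedback), -0.26 for other early response genes and 0.06 for the regulators.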

How the data were processed

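The series comprised 8 RNA-seq libraries of enriched mRNA, per the labels' protocols, in 4 groups of 2 taken from the labels. The deposited gene counts were raw whole numbers. The deposited FPKM values were, judging from the values, counts that the authors divided by gene length and library total: the ratio of count to FPKM divided by the library total spread by a median of 0.017% over 1672 genes. STAR 2.7.10a and hg19 are listed in the submitters' processing notes. Of the read counting, the program, the strand setting and the gene models are not stated in the sources used here.

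Genes were filtered with filterByExpr (count minimum 10), scaled by TMM and fitted with edgeR 4.0.16 (R 4.3.3, quasi-likelihood, a mean per group, 8 libraries, 4 residual degrees of freedom). In all, 5 comparisons were tested over 15923 genes with Benjamini-Hochberg adjustment at 0.05. Total counts were 17217776 to 20292291 per library. Replicates differed by more than sampling noise (chi-square per degree of freedom 2.34 to 7.24), so none was counted as a duplicate. Intervals of fold changes use the t distribution of the fit, whose degrees of freedom include those borrowed from other genes. The interval of the antisense ratio is exact and covers counting error only. FPKM was used for levels between genes and CPM for fold changes.

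The members and gene lists were chosen with earlier results of these data known, so counts over them are descriptions. Every member is named. From each list, up to 3 called genes with the largest changes and a mean of at least 5 CPM were eligible to be named, and TAF7 as the target. The most alike genes were taken by the smallest root mean square difference of centred log2 CPM (prior count 2). KLF2, KLF5, KLF7, KLF10 and KLF16 were chosen after their values were seen. Promoters came from RefSeq GRCh38.p14 and overlapping genes from GENCODE 29; no coordinates of the deposited files were used. The fit was tested on simulated data for the LM2 knockdown only, with changes placed in genes above 5 CPM. That test does not cover the interaction or the sparser EGR2, EGR3 and NR4A3. Alternatives were RLE factors, library totals, DESeq2 1.42.0, no filter, only the libraries compared, a replicate block, limma 3.58.1 on log2 FPKM plus 1 or 0.1, and each library left out.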

Additional observations from a re-analysis of the deposited data

Results flagged for a closer look

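For 5 members the knockdown effect differed between the lines by the test of the difference itself (LM2 minus MDA-MB-231, log2 scale, edgeR adjusted p over 15923 genes). The difference was -0.37 for EGR1 (edgeR adjusted p = 0.0031), with a lower level in both lines. It was 1.67 for NR4A1 (1.79e-05), and how reads in the exon bases shared with its antisense gene were assigned is not known. It was -1.16 for KLF4 (9.72e-11) and -1.04 for IER3 (7.01e-11). For IER2 it was -0.58 (0.00133), and there neither within-line change kept its call in every alternative. TAF7 itself differed in the other sense, by 0.34 ± 0.09 (edgeR adjusted p = 0.00544), which missed the threshold with library totals (0.0538) and without replicate 3 of the MDA-MB-231 control (0.0513), over a range of 0.00116 to 0.0538.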

How the results depend on the processing

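Of the values for single genes under the alternatives, 796 kept direction and side of the threshold, 46 lost a call, 8 gained one and 9 turned direction. The 3 members called in MDA-MB-231 became 1 to 3 when each library was left out, and the 4070 genes called there 2031 to 4408; the lowest values came from leaving out a control library of that line. The 8 members called in LM2 became 4 with DESeq2 (1 higher, 3 lower) and 4 to 8 with a library left out. Over all alternatives, the members called between the lines were 6 to 7 with the control hairpin and 5 to 7 with the TAF7 hairpin, and 5 in the interaction in each. All turns of direction came from leaving out 1 library, and none concerned a called value. In the MDA-MB-231 knockdown, the log2 fold changes over all alternatives ranged from -1.20 to 1.41 for EGR3, -0.0576 to 0.68 for NR4A3 and -1.19 to 0.0555 for EGR2. Between controls they ranged from -0.16 to 2.45 for EGR3. Between TAF7 hairpins they ranged from -1.02 to 0.11 for EGR3, -0.17 to 0.00836 for IER3 and -1.47 to 0.17 for NR4A3. For EGR2 in the interaction they ranged from -1.02 to 0.22. The cause of the turns of direction was not tested.

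With the replicate number as a block, 3, 8, 7, 6 and 5 members were called in the 5 comparisons, as without it, and 4053, 6554, 10203, 9901 and 4128 genes. The labels do not say whether the numbers pair the libraries. Deviations of same-numbered libraries correlated at -0.14 to 0.0708 over 6 pairs of groups, values that show no strong pairing and cannot exclude a weak one. The fit of only the 4 libraries compared gives no interaction. Counts under about 20 reads, as for EGR3 and NR4A3, limited what could be detected, and where a library was left out the lone library was assumed to vary like the others.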

Other observations

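Among 18 other EGR, KLF and IER family genes, 14 were tested, of which 3 were called higher with shTAF7 in MDA-MB-231 and the other 11 were not called, and 3 higher and 6 lower in LM2. Of all tested genes, 12.6% were called higher in MDA-MB-231, and 21.8% higher and 19.4% lower in LM2, so the 3 higher in LM2 are near the share of all genes. KLF9, a glucocorticoid-responsive factor, rose by 0.39 ± 0.11 in MDA-MB-231 (edgeR adjusted p = 0.00493) and fell by 1.01 ± 0.11 in LM2 (5e-10). IER5, a partner of heat shock factor HSF1, rose in both lines, by 0.35 ± 0.08 (edgeR adjusted p = 0.000416) and by 0.75 ± 0.07 (4.17e-12), whereas IER3 fell in LM2. KLF15, a metabolic regulator, fell by 1.08 ± 0.17 in LM2 (edgeR adjusted p = 6.61e-07). KLF2 rose by 0.51 ± 0.11 in LM2 (edgeR adjusted p = 0.000156), KLF10, a TGF-beta-induced factor, fell by 0.42 ± 0.07 and KLF5 was not called there (0.14 ± 0.08, edgeR adjusted p = 0.132). In LM2, KLF16 rose more than KLF2 (0.60 ± 0.08, edgeR adjusted p = 6.63e-08) and KLF7 fell more than KLF10 (-0.58 ± 0.12, 0.000123). IER5L was higher in MDA-MB-231 (0.38 ± 0.14, edgeR adjusted p = 0.0397) and lower in LM2 (-0.50 ± 0.17, 0.0153). EGR4 had at most 1 read in a library and was not tested.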
